A study of Mus musculus with 18 samples.

Results

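Macrophages without tristetraprolin (TTP) were compared with wild-type macrophages after stimulation with lipopolysaccharide (LPS), before transcription was blocked. The comparison takes the 3 arrays of TTP-/- cells (KO) and the 3 arrays of wild-type cells (WT) labelled 0 min, which are 6 of the 18 arrays of the series, and covers every gene on the array. All cells were grown from C57Bl/6 bone marrow in medium with M-CSF, the growth factor of macrophages, and both genotypes had received LPS for 3 h and neither actinomycin D nor SB203580. The other 12 arrays hold the same genotypes 45 and 90 min after actinomycin D, which stops transcription, was added with SB203580, an inhibitor of the kinase p38. The labels describe the KO cells as coming from TTP-/- mice and name no cell type that the deletion is limited to. Separate animals or cultures are not named in the labels, so the spread behind the p-values is that between samples and may be technical.

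TTP, the product of Zfp36, binds AU-rich elements in the 3′ ends of mRNAs and recruits the enzymes that remove their poly(A) tails, which shortens the life of many inflammatory mRNAs. LPS is sensed through the receptor TLR4 and switches on cytokine and chemokine genes through NF-kB and other pathways. In stimulated macrophages p38 signalling holds TTP in a less active state. An mRNA level before the transcription block reflects both synthesis and decay, and the arrays do not separate them.

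The values are intensities on a linear scale, and differences are given as KO minus WT on the log2 scale with the standard error (SE) of a limma fit over all 18 arrays, in which same-numbered arrays formed a block. Each group has n = 3 arrays. All 12 macrophage markers on the array were at or above the signal limit, an intensity of 8.16, and 0 of them passed the test. Of the 12, 4 were higher and 2 lower in KO at an unadjusted p below 0.05, against 6.68% and 6.59% of all genes. Adgre1, which encodes F4/80, reached 1485 to 1944 in KO and 1310.1 to 1707 in WT. The sample numbers in the titles form 2 runs, with replicate 3 of every group in one and replicates 1 and 2 in the other. WT replicate 3 stood apart from the other WT arrays at 0 min. KO replicate 3 had correlations over genes of 0.941 and 0.945 with WT replicates 1 and 2. For WT replicate 3 these were 0.941 and 0.948. With KO replicates 1, 2 and 3, WT replicate 3 had higher correlations, of 0.968, 0.973 and 0.973. Its median log2 intensity over ribosomal protein genes was 9.79, against 9.11 to 9.64 in the other 17 arrays, of which KO replicate 3 at 0 min was the lowest. Over small nucleolar RNA genes, a list chosen after the values were seen, its median was 4.89, against 3.46 to 3.76 in the other 5 arrays of its run and 4.22 to 5.11 in the 12 arrays of the second run.

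Of 19454 genes, 10258 reached the signal limit in the mean of at least 1 group and were tested. In KO 19 genes were higher, 0.185% of those tested, and 13 were lower, 0.127%, at a Benjamini-Hochberg adjusted p below 0.05. An unadjusted p below 0.05 was found for 13.3% of the genes tested, 6.68% higher and 6.59% lower in KO. All 32 differed in the same direction in each of the 3 same-numbered pairs, which was also so for 30.1% of all genes tested. The KO and WT values did not overlap in 9 of the 19 higher genes and 10 of the 13 lower ones. Over all genes this was so for 3.15% with KO above and 7.14% with KO below, 10.3% in all. The genes were called on these same arrays and pairs, so neither count is separate support for the calls. Without the replicate block limma called 0 genes in either direction, with 387 higher (3.77%) and 390 lower (3.8%) at an unadjusted p below 0.05, and the 32 genes then had adjusted p-values of 0.152 to 0.765. With WT replicate 3 left out 1395 genes (13.6%) were higher and 249 (2.43%) lower, among them all 32. Leaving out any 1 of the other 5 arrays left 0 to 2 higher and 0 to 3 lower genes.

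**Figure D1:**
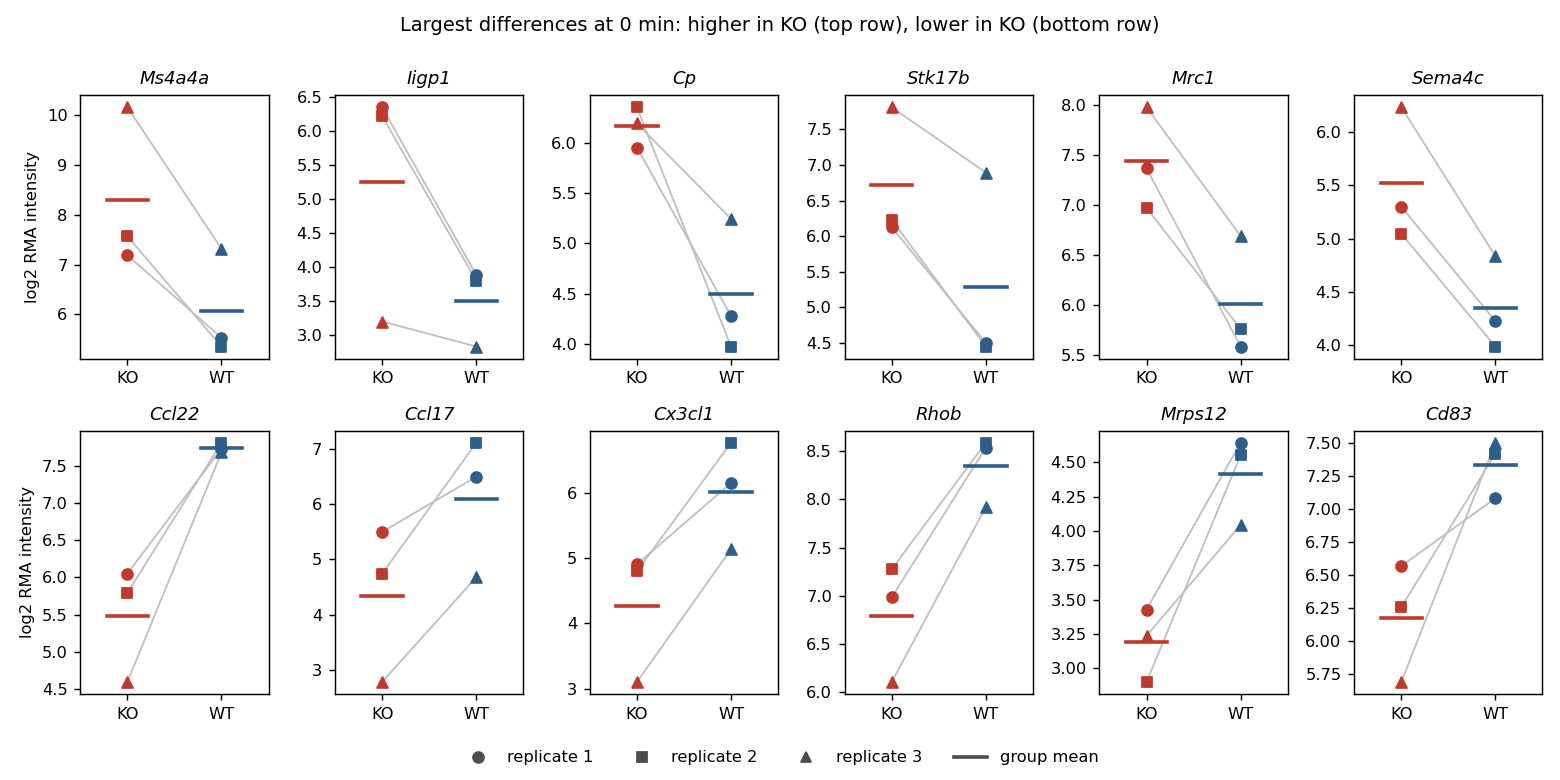
The log2 intensities of the 6 named genes with the largest rise (top row) and the 6 with the largest fall (bottom row) in KO at 0 min are shown for each array, with KO on the left, WT on the right, grey lines joining same-numbered arrays and bars at the group means. Every line of the top row runs down to WT and every line of the bottom row runs up to WT. The choice of named genes required this agreement of the pairs. The scale of the vertical axis differs between genes.

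The largest fall in KO was in 3 chemokine genes that are neighbours on chromosome 8. Ccl22 and Ccl17 encode ligands of CCR4, a receptor of T helper 2 and regulatory T cells, and Cx3cl1 encodes fractalkine, the ligand of CX3CR1 on monocytes and macrophages. Ccl22 had intensities of 66.3, 55.3 and 24.2 in KO and 212, 224 and 204 in WT. All 3 KO values lay far below the narrow WT range, and KO replicate 3 was the lowest. The log2 difference was -2.26 ± 0.31, so WT was 4.78-fold higher than KO (limma adjusted p 0.0122). Cx3cl1 had intensities of 29.9, 27.8 and 8.59 in KO and 70.9, 109 and 35.1 in WT, and the groups did not overlap. It fell by 1.75 ± 0.25 on the log2 scale (limma adjusted p 0.0122). Ccl17 had intensities of 45.1, 26.8 and 6.92 in KO and 90.1, 138 and 25.6 in WT. The replicate 3 arrays of both genotypes were lower than the others, so the groups overlapped, yet each pair had less Ccl17 in KO, with differences of -0.997, -2.36 and -1.89. Ccl17 fell by 1.75 ± 0.30 on the log2 scale (limma adjusted p 0.0207).

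On assembly GRCm38.p6, Ccl22 occupies chr8:94745684-94751388, Cx3cl1 chr8:94772180-94782427 and Ccl17 chr8:94809380-94812038, a stretch of 66.4 kb. Within 200 kb on either side 12 genes were on the array and 9 were tested, and the other 6 did not pass, with differences from -0.54 (Ciapin1, adjusted p 0.196) to 0.28 (Rspry1, adjusted p 0.531); both were named after their values were seen. Of the 19 CC and CXC or CX3C chemokine genes tested, these 3 were the ones past the threshold, against 0.312% of all genes tested. Among the brighter inflammatory chemokines, Ccl3 had intensities of 4591, 4572 and 4880.5 in KO and 4499.7, 4314 and 5247 in WT, a difference of 0.00 ± 0.13 (limma adjusted p 0.997). For Cxcl10 the difference was 0.01 ± 0.14 (adjusted p 0.987). Ccl5, or RANTES, had intensities of 1932, 2113 and 1423 in KO and 2293, 2369 and 2178 in WT. Its KO arrays all lay below its WT arrays, with a difference of -0.34 ± 0.14 that did not pass (limma adjusted p 0.328). Cxcl3 had a difference of -0.69 ± 0.16 without passing (adjusted p 0.0837).

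The promoters of the 3 neighbouring chemokine genes, and that of Ms4a4a, which had the largest rise, are shown because these genes had the largest differences in each direction. Each run holds 250 bases before and 50 bases after the gene's start in RefSeq on GRCm38.p6, plus strand, at chr8:94745434-94745733 for Ccl22, chr8:94771930-94772229 for Cx3cl1, chr8:94810203-94810502 for Ccl17 and chr19:11375238-11375537 for Ms4a4a. The Ccl17 start used there lies inside the gene span given above. Capitals mark matches to any of 4 motifs searched on both strands: the NF-kB motif, the STAT motif TTCNNNGAA, the AP-1 motif TGANTCA and the TATA box TATAAA.
Ccl22: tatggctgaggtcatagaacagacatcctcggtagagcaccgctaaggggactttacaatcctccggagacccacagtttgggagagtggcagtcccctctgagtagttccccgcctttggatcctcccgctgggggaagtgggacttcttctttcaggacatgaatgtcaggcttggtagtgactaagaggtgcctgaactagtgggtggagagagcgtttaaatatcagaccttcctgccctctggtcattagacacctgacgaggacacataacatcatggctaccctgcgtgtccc
Cx3cl1: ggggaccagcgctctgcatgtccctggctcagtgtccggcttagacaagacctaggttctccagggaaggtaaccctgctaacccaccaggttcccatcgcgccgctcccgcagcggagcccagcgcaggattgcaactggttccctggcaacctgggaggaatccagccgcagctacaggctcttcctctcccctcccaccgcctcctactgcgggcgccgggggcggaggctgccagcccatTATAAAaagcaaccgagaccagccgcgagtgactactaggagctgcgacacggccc
Ccl17: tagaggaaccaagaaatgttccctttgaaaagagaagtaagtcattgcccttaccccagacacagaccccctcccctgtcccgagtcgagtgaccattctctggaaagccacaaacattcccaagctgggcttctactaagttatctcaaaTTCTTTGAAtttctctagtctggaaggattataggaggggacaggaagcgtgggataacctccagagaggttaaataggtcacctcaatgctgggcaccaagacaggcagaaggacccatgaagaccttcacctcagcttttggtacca
Ms4a4a: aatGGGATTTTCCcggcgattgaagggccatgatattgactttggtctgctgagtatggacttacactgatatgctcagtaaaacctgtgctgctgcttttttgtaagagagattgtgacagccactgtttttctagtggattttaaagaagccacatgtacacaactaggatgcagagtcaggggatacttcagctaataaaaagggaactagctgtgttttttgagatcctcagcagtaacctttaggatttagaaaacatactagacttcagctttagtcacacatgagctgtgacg
The Ccl22 run held no match. The Cx3cl1 run held TATAAA at position -6 from the start, where negative positions lie before it, a motif present in 14.2% of 27025 promoters of the same length. The Ccl17 run held 1 STAT motif at -99 (8.42% of promoters) and the Ms4a4a run 1 NF-kB motif at -247 (8.19%), while TGANTCA, in 7.92% of promoters, was in none of them. A match describes the letters only, and the 3 chemokine promoters shared none of the 4 motifs. Other forms of these motifs, such as a STAT motif with another spacing, were not searched.

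Rhob, also lower in KO, encodes a small GTPase of endosomes and the actin cytoskeleton. Rhob had intensities of 127, 155 and 68.9 in KO and 372, 385 and 242 in WT. The groups did not overlap, and Rhob fell by 1.56 ± 0.27 on the log2 scale (limma adjusted p 0.0207). Cd83, a surface marker of activated dendritic cells and macrophages, had intensities of 95.0, 76.5 and 51.7 in KO and 136, 171 and 181 in WT. KO was below WT in every array, and Cd83 fell by 1.16 ± 0.22 (limma adjusted p 0.0349). Lsp1, an actin-binding protein of leukocytes, fell by 0.98 ± 0.17, and its KO values of 219.5, 261 and 124 lay below the WT values of 382, 486 and 296 (limma adjusted p 0.0207). F11r, which encodes the junctional adhesion molecule JAM-A, fell by 0.74 ± 0.14 and did not overlap between the groups (limma adjusted p 0.0325).

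The remaining falls were smaller or in dimmer genes. Enc1, which encodes an actin-binding protein, fell by 0.92 ± 0.19 (limma adjusted p 0.048). Smpdl3b, a membrane-anchored phosphodiesterase of macrophages, fell by 0.77 ± 0.15 (adjusted p 0.0414), and Dexi fell by 0.75 ± 0.15 (adjusted p 0.048). Nip7, a factor of ribosome assembly, fell by 0.73 ± 0.15 (adjusted p 0.048). Values of Smpdl3b and Nip7 overlapped between the groups, and those of Enc1 and Dexi did not. H2bc18, a histone H2B gene, had intensities of 23.7, 20.7 and 16.7 in KO and 37.6, 39.5 and 58.1 in WT and fell by 1.13 ± 0.22 (limma adjusted p 0.0352). It was the only one of 23 histone genes past the threshold. Of the 23, 13 were lower at an unadjusted p below 0.05, against 6.59% of all genes tested. Without WT replicate 3, 4 were called lower, against 2.43% of all genes tested. The median over the histone genes was -0.61, with -0.20, -0.58 and -1.07 in pairs 1, 2 and 3, so the third pair, which holds WT replicate 3, had the lowest.

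Dendritic cells also make Ccl17, Ccl22 and Cd83. Of 10 dendritic cell markers on the array 3 reached the signal limit, namely Zbtb46, Ccr7 and Irf8, and 0 of these 3 passed in limma, adjusted or not. Flt3, Xcr1, Clec9a, Cd209a, Siglech, Batf3 and Itgae stayed below the limit. The summed intensity of the 10 markers was 101 to 129 in KO and 89.9 to 123 in WT, so the ranges overlapped. In bulk RNA, fewer cells of a type and less RNA per cell cannot be told apart, and the part of such cells in these differences was not tested.

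Ms4a4a had the largest rise in KO. It encodes a membrane protein of the MS4A family, whose members cross the membrane several times and are made by B cells, mast cells and macrophages. Ms4a4a had intensities of 146, 189.8 and 1135 in KO and 46.4, 41.0 and 159 in WT. Replicate 3 was the highest array in each genotype, and WT replicate 3 exceeded KO replicate 1, so the groups overlapped while the pairs did not, with differences of 1.65, 2.21 and 2.83. KO was 4.7-fold higher than WT, a log2 difference of 2.23 ± 0.34 (limma adjusted p 0.013). Ms4a6b had intensities of 304, 286 and 293 in KO and 159, 139 and 161 in WT. Its arrays were even within each genotype and did not overlap, with a difference of 0.95 ± 0.18 (limma adjusted p 0.0352). Ms4a6d had intensities of 741, 707 and 1423 in KO and 330.7, 394 and 870.4 in WT, with a difference of 0.91 ± 0.17 and overlapping groups (adjusted p 0.0325).

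Of 19 Ms4a genes on the array 9 were tested, and these 3 were called higher, against 0.185% of all genes tested. The family was not one of the gene lists and was chosen with these values known, so the count is no separate result about it. Ms4a6c did not pass, although its KO values of 674, 658 and 779 lay above its WT values of 431, 411 and 562 (difference 0.60 ± 0.15, limma adjusted p 0.117). Ms4a7 differed by 0.33 ± 0.18 (adjusted p 0.437) and Ms4a4c by 0.05 ± 0.24 (adjusted p 0.955). Ms4a1, the B cell marker CD20, and Ms4a2, a chain of the mast cell IgE receptor, were below the signal limit in both genotypes. These paralogs are similar in sequence, as histone genes are, and how far their probes take up each other's RNA was not tested.

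Mrc1, the mannose receptor CD206 of tissue and alternatively activated macrophages, was higher in KO. Mrc1 had intensities of 165, 125 and 252 in KO and 47.8, 54.1 and 103 in WT. The lowest KO array exceeded the highest WT array, and the difference was 1.43 ± 0.25, or 2.69-fold (limma adjusted p 0.0207). Among 17 phagocytic and scavenger receptors tested, Mrc1 was the 1 gene past the threshold. At an unadjusted p below 0.05, 8 were higher and 1 lower, against 6.68% and 6.59% of all genes tested. Leaving out WT replicate 3 gave 7 called higher and 2 lower, against 13.6% and 2.43% of all genes tested. Of the 17, 10 were higher in KO in every pair, as were 13.3% of all genes tested, and 1 was lower in every pair, as were 16.8%. The median over the list was 0.42, with 0.40, 0.44 and 0.38 in pairs 1, 2 and 3, against 0.00 over all genes tested. Fcgr3, an activating Fc receptor, had a difference of 0.58 ± 0.16 (adjusted p 0.158), Mertk, a receptor for apoptotic cells, 0.67 ± 0.17 (adjusted p 0.125) and the scavenger receptor Msr1 0.76 ± 0.24 (adjusted p 0.225). Axl, the relative of Mertk that lies near Zfp36, had a difference of the opposite sign. Fcgr3 and Msr1 were named after their values were seen.

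The alternative activation genes moved in both directions. Of 5 tested, Mrc1 was called higher and Ccl17 and Ccl22 lower, against 0.185% and 0.127% of all genes tested. At an unadjusted p below 0.05, 2 were higher and 2 lower, against 6.68% and 6.59%. Mrc1, Ccl17 and Ccl22 were already among the largest differences, so their count is no separate result about the list. Macrophages raise all 3 in response to interleukin-4 in culture. Their list is short, and 9 of the 14 on the array stayed below the signal limit. Il4ra, which encodes the interleukin-4 receptor and was on the list of Il10 and its response genes, had intensities of 182, 204 and 709 in KO and 106, 95.7 and 206 in WT, a difference of 1.22 ± 0.26 that did not pass (limma adjusted p 0.0631).

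Cp, which encodes the copper-carrying ferroxidase ceruloplasmin, was among the larger rises. Cp had intensities of 62.1, 82.1 and 73.4 in KO and 19.4, 15.7 and 37.9 in WT. The lowest KO array exceeded the highest WT array, and the difference was 1.67 ± 0.29 (limma adjusted p 0.0207). Stk17b, a kinase of the death-associated family, differed by 1.44 ± 0.23 (adjusted p 0.0199), with KO values of 69.9, 74.9 and 225 and WT values of 22.6, 21.8 and 119. Both replicate 3 arrays were the high ones, so the groups overlapped. The semaphorin gene Sema4c, with 39.3, 33.0 and 74.9 in KO and 18.7, 15.9 and 28.5 in WT, did not overlap and differed by 1.17 ± 0.22 (adjusted p 0.0325). Pfkfb3, which makes the activator of the glycolytic enzyme phosphofructokinase, differed by 1.17 ± 0.18 (adjusted p 0.013). It was the only one of 17 glycolysis and hypoxia genes to pass, and the list's median was -0.02. Without WT replicate 3, 3 of the 17 were called higher, against 13.6% of all genes tested.

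Apoe, the apolipoprotein secreted by macrophages, whose gene lies near Zfp36, had intensities of 1897, 1564 and 1191 in KO and 851, 942 and 600.0 in WT. The groups were apart, with a difference of 0.96 ± 0.15 (limma adjusted p 0.013). Of 21 lipid and cholesterol genes tested, Apoe was the 1 called, and the list's median was -0.04. Without WT replicate 3, 3 of the 21 were called higher, against 13.6% of all genes tested. Aoah, an enzyme that removes acyl chains from LPS, had 142, 155 and 205 in KO and 65.4, 63.4 and 119 in WT and differed by 1.06 ± 0.20 (adjusted p 0.0325). Pla2g7, which degrades platelet-activating factor, differed by 0.86 ± 0.16 (adjusted p 0.0325) and overlapped between the groups.

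Slc28a2, a nucleoside transporter, differed by 1.07 ± 0.19 (limma adjusted p 0.0245). Marchf1, a ubiquitin ligase that removes MHC class II and CD86 from the cell surface, differed by 0.98 ± 0.18 (adjusted p 0.0308). Among 13 antigen presentation genes 0 passed, and the class II gene H2-Eb1 had a difference of -0.76 ± 0.19 (adjusted p 0.116). Of the 13, 0 were higher and 4 lower at an unadjusted p below 0.05, against 6.68% and 6.59% of all genes. Without WT replicate 3, 3 were called lower, against 2.43% of all genes tested. Slfn1, a Schlafen family gene, differed by 1.05 ± 0.20 (adjusted p 0.0349), Pdpn, the membrane glycoprotein podoplanin, by 0.89 ± 0.15 (adjusted p 0.0207) and Ric1 by 0.91 ± 0.19 (adjusted p 0.048). Slc28a2 and Marchf1 had groups apart, whereas Slfn1, Pdpn and Ric1 overlapped. The 1 higher gene not named here has a provisional name.

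Csf3r, the receptor for G-CSF, is carried mainly by neutrophils and also by monocytes and macrophages. Csf3r had intensities of 23.1, 26.8 and 44.6 in KO and 11.8, 12.6 and 19.3 in WT. The groups did not overlap, and the difference was 1.09 ± 0.21 (limma adjusted p 0.0349). Of 12 neutrophil markers on the array 4 reached the signal limit, S100a8, Csf3r, Mmp8 and Lcn2, and Ly6g, S100a9, Camp, Ltf, Ngp, Cxcr2, Mmp9 and Retnlg did not. The summed intensity of the 12 was 201 to 498 in KO and 151 to 281 in WT. Their part in the Csf3r difference was not tested.

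Iigp1, an interferon-induced GTPase, differed by pair. Iigp1 had intensities of 81.4, 74.5 and 9.22 in KO and 14.8, 13.9 and 7.15 in WT. KO was high in replicates 1 and 2, while both genotypes were near the signal limit in replicate 3, and the pair differences were 2.46, 2.42 and 0.37. The fitted difference was 1.75 ± 0.35 (limma adjusted p 0.0414). It was the only one of 28 interferon-stimulated genes tested to pass. At an unadjusted p below 0.05, 4 were higher and 0 lower, against 6.68% and 6.59% of all genes tested. With WT replicate 3 left out 11 of the 28 were called higher and 0 lower, against 13.6% and 2.43% of all genes tested. Within replicates 1 and 2 the counts were 10 and 0, against 991 and 135 among all 10258 genes tested. The list's medians were 0.31, 0.46 and -0.14 in pairs 1, 2 and 3. Ifit2, for example, had 1060.3, 1338 and 213 in KO and 561, 626 and 357 in WT, above WT in pairs 1 and 2 and below it in pair 3, a difference of 0.42 ± 0.29 (adjusted p 0.567); it was named after its values were seen. Without WT replicate 3 the Ifit2 difference was 0.95 (limma adjusted p 0.00355).

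Across genes, the first 2 pairs differed alike and the third did not. The correlation of the KO-minus-WT difference over the 10258 genes was 0.646 between pairs 1 and 2, -0.09 between pairs 1 and 3 and -0.06 between pairs 2 and 3. These are descriptions over genes, which are not independent, and pairs 1 and 2 share a run of title numbers. A difference of at least 1 log2 unit was found for 234 higher and 31 lower genes in pair 1, 277 and 36 in pair 2, and 54 and 200 in pair 3. In all 3 pairs at once, 4 genes were higher by at least 1, or 0.039%, and 3 were lower, or 0.0292%. The higher ones were Ms4a4a, Mrc1, Sema4c and a gene with a provisional name that did not pass, and the lower ones were Ccl22, Cx3cl1 and Rhob.

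**Figure D2:**
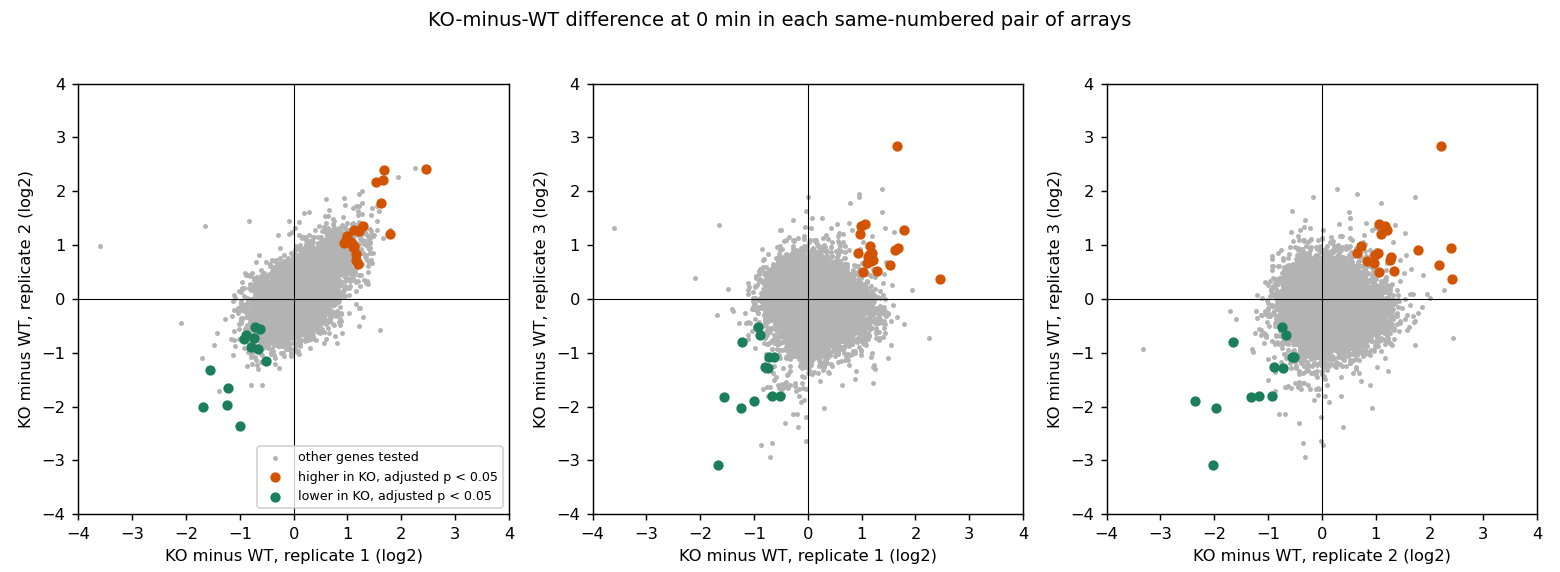
Each point is 1 of 10258 genes, and the axes give its KO-minus-WT log2 difference in pairs of same-numbered arrays (1 and 2, 1 and 3, 2 and 3); orange points are the 19 genes higher and green points the 13 genes lower in KO. The grey cloud is drawn out along the diagonal in the first panel (correlation 0.646) and round in the others (-0.09 and -0.06). The coloured genes were called on these same pairs and lie in the corners where both pairs have the same sign.

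Zfp36, the targeted gene, lies at chr7:28376784-28379228 on GRCm38.p6. Zfp36 had intensities of 76.2, 108 and 112 in KO and 247, 232 and 139 in WT. KO was below WT in every array, least so against WT replicate 3, and the difference of -1.04 ± 0.29 did not pass (limma adjusted p 0.162). With WT replicate 3 left out it was -1.24 (adjusted p 0.0107). At 45 and 90 min it was 0.59 (adjusted p 0.708) and 0.87 (adjusted p 0.262). Probes over the whole gene feed 1 value, and which part is deleted is not given in the sources used here, so this level is no check of the genotype labels.

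Of the 184 genes tested within 10 Mb of Zfp36 on chromosome 7, 2 passed, or 1.09%, against 0.301% of the 9954 genes tested outside a window of 20 Mb. They were Apoe, higher in KO and 8.67 Mb away, and Mrps12, a protein of the mitochondrial ribosome whose gene lies 0.36 Mb away. Mrps12 had intensities of 10.8, 7.47 and 9.44 in KO and 25.0, 23.5 and 16.5 in WT. KO lay near the signal limit and below WT in every array, so the fall of 1.22 ± 0.22 on the log2 scale may understate the difference (limma adjusted p 0.026). Of the 184 genes, 18 were higher and 49 lower in KO in all 3 pairs, against 13.3% and 16.8% of all genes tested. Their median difference was -0.09. The other 4 neighbours with the smallest p-values did not pass. All 4 had KO below WT in every array, as had 7.14% of all genes tested, but they were picked by their p-values. Axl, a receptor tyrosine kinase for apoptotic cells, had 41.7, 39.3 and 44.8 in KO and 68.4, 82.7 and 78.8 in WT (difference -0.87 ± 0.21, adjusted p 0.102). Nfkbid, a nuclear regulator of NF-kB, differed by -0.92 ± 0.21 (adjusted p 0.0836), the AlkB-family gene Alkbh6 by -0.77 ± 0.18 (adjusted p 0.0922) and the RNA-binding protein gene Hnrnpl by -0.51 ± 0.13 (adjusted p 0.144). Loss of TTP and any sequence carried along with the deleted allele cannot be told apart for genes in this window.

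None of the 25 reported TTP targets tested passed before the block. Of the 25, 12 were higher in KO in all 3 pairs and 8 were lower in all 3, against 13.3% and 16.8% of all genes tested. In limma 0 passed, and the list's median was 0.13. At an unadjusted p below 0.05, 4 were higher and 4 lower, against 6.68% and 6.59% of all genes tested. Zfp36, itself a reported target, is one of those 4 lower genes. Without WT replicate 3, 3 of the 25 were called higher and 3 lower, against 13.6% and 2.43% of all genes tested. Tnf, the best known target, had 3925, 4211 and 4391 in KO and 3501, 3810.0 and 3657 in WT. KO was the higher in each pair, but by 0.19 ± 0.17 (95% confidence interval -0.18 to 0.56, limma adjusted p 0.681). The neutrophil chemoattractants Cxcl1 and Cxcl2 differed by 0.19 ± 0.23 (adjusted p 0.771) and 0.29 ± 0.20 (adjusted p 0.561). Ier3, an early response gene of cell survival, had 106, 106 and 263 in KO and 54.6, 67.2 and 68.6 in WT. All KO arrays were above all WT arrays, with a difference of 1.18 ± 0.30 that did not pass (adjusted p 0.127). Dusp1, a phosphatase that switches off p38, differed by 0.97 ± 0.45 and was higher in KO in each pair (adjusted p 0.37). Csf2, which encodes GM-CSF, had a difference of -0.97 ± 0.28 (adjusted p 0.192).

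Il10 encodes the cytokine that restrains macrophage activation and is itself a reported TTP target. Il10 had intensities of 76.5, 92.5 and 214 in KO and 34.5, 39.0 and 201 in WT. KO exceeded WT in pairs 1 and 2, and the replicate 3 arrays were both high and nearly equal. The difference of 0.83 ± 0.25 did not pass (limma adjusted p 0.205). Among the 14 genes of Il10 and its response 0 passed, and the median was 0.31, with 0.14, 0.39 and 0.44 in the pairs. Of the 14, 6 were higher and 0 lower at an unadjusted p below 0.05, against 6.68% and 6.59% of all genes. Without WT replicate 3, 4 were called higher, against 13.6% of all genes tested. Etv3, a transcriptional repressor induced by interleukin-10, had 332.7, 389 and 538 in KO and 166, 169 and 339 in WT (difference 0.96 ± 0.25, adjusted p 0.144).

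Of 29 pathway lists 7 held a called gene and 22 did not. The 22 lists without one covered 366 tested genes. Of these, 34 were higher and 45 lower at an unadjusted p below 0.05, against 6.68% and 6.59% of all genes tested. Without WT replicate 3, 55 of the 366 were called higher and 19 lower, against 13.6% and 2.43% of all genes tested. The medians of these lists ran from -0.23 to 0.31. Among 23 genes of LPS receptor signalling, Tlr4, the LPS receptor, had a difference of 0.81 ± 0.28 (adjusted p 0.266) and Tlr3 of 0.66 ± 0.23 (adjusted p 0.263). The Tlr4 values were 42.5, 53.4 and 64.5 in KO and 18.3, 23.4 and 63.4 in WT, so the third pair was nearly equal. With WT replicate 3 left out the Tlr4 difference was 1.27 (adjusted p 0.00105). In that fit 11 of the 23 genes were called higher and 0 lower, against 13.6% and 2.43% of all genes tested. The lists of respiratory chain, proteasome and cell cycle genes had medians of -0.18, -0.20 and -0.23, and in each the third pair was the lowest, at -0.32, -0.41 and -0.70. Ribosomal protein genes had a median of -0.26, with -0.05, -0.09 and -0.58 in the pairs. Of these 56 genes 0 were called and 19 were lower at an unadjusted p below 0.05, against 6.59% of all genes tested. Small nucleolar RNA genes had a median of -0.53, with -1.30 in the third pair. Of these 20 genes 0 were called and 13 were lower at an unadjusted p below 0.05, against the same 6.59%. In the third pair WT replicate 3 had the highest ribosomal median of the 18 arrays and KO replicate 3 the lowest, 9.11 in KO against 9.79 in WT. For small nucleolar RNA the medians of these arrays were 3.56 in KO and 4.89 in WT, the highest of the run. The part of each array in these list medians was not tested.

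**Figure D3:**
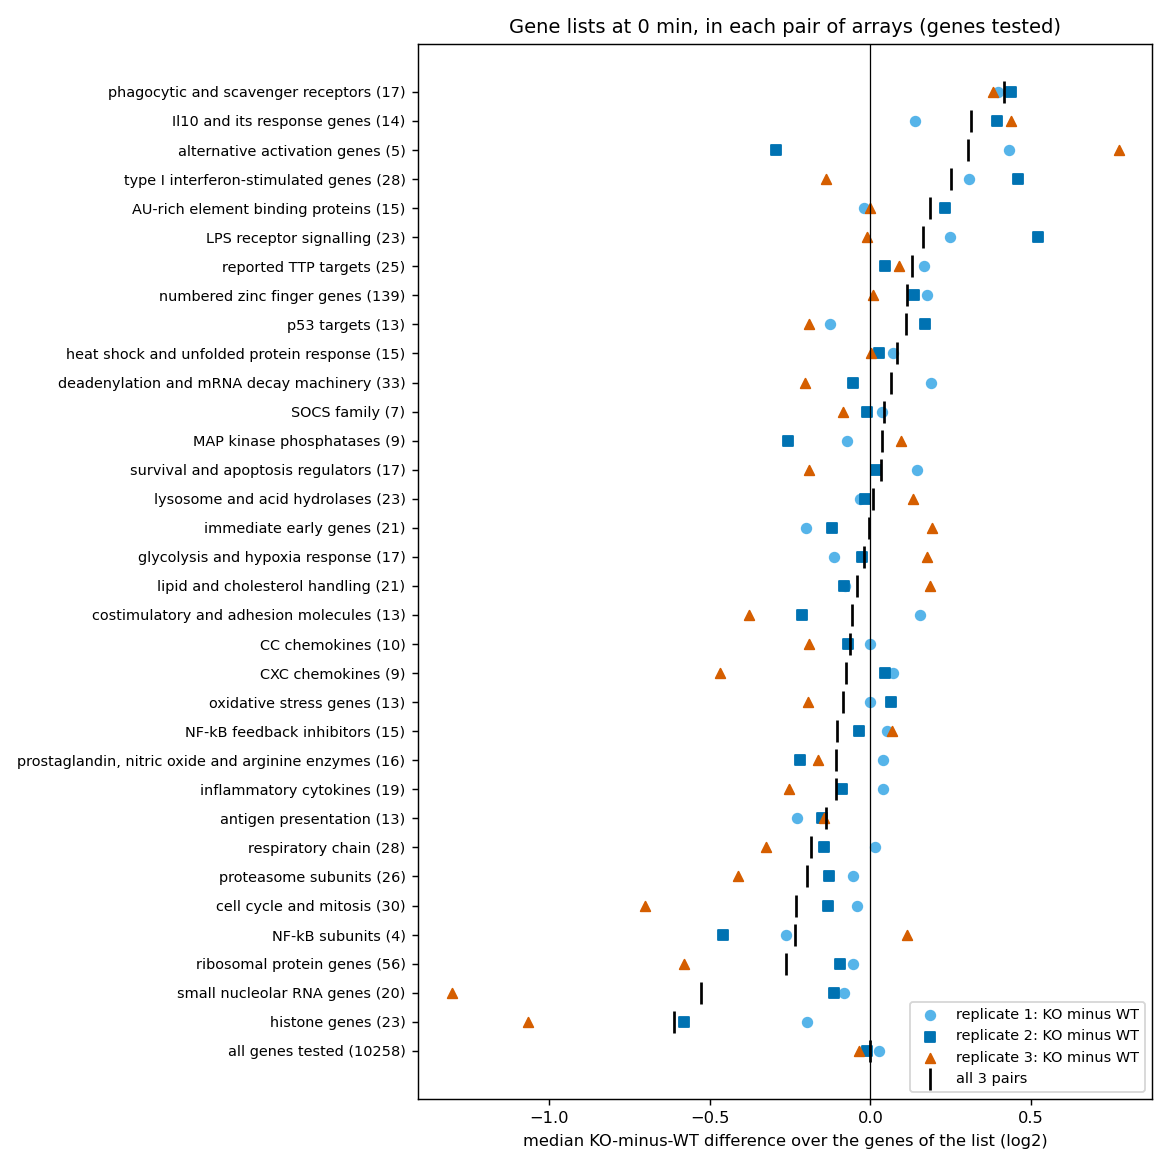
Each row is a gene list with the number of genes tested in brackets; coloured points give the median KO-minus-WT log2 difference in each pair of same-numbered arrays, and the black bar the median of the fitted differences. Phagocytic and scavenger receptors sit at 0.38 to 0.44 in every pair, while ribosomal, small nucleolar RNA and histone genes are lowest in the third pair.

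The later arrays measured the same genes in other samples, with no array shared with 0 min, although the labels do not say whether the 3 times came from the same cultures. All 3 times entered the same fit and shared 1 estimate of spread per gene. Calls at the later times are therefore not separate from those at 0 min. All 19 genes higher in KO at 0 min had a positive difference at 45 min and at 90 min, and 5 and 11 of them passed there. Of the 13 lower genes, 13 had a negative difference at 45 min and 12 at 90 min, where the exception was Enc1, and 7 and 3 passed. Over all genes tested the sign was shared with 0 min by 54.9% at 45 min and 59.7% at 90 min, and 0.283% and 0.78% of them were called at those times, 0.146% and 0.712% with a positive and 0.136% and 0.0682% with a negative difference. The median over the higher genes was 1.07 at 0 min, 0.78 at 45 min and 0.93 at 90 min. Over the lower genes it was -1.13, -0.86 and -0.58. The genes were chosen for their differences at 0 min, so smaller later values can come from that choice alone. The test of the change has the same limit, as it subtracts the 0 min difference. A test of the change itself (limma, interaction) called 0 of the 32 genes at either time, against 0.00975% of all genes tested at 45 min and 0.0292% at 90 min. At an unadjusted p below 0.05 it counted 2 of the higher and 0 of the lower genes at 45 min, and 2 and 6 at 90 min. The higher genes counted had negative changes and the lower genes positive ones. Over all 10258 genes tested it counted 179 positive and 227 negative changes at 45 min, and 139 negative ones at 90 min. Positive changes at 90 min numbered 177 without the replicate block and 342 with the title-number runs as a block.

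Ccl22 kept its difference through the block. At 45 min it had 61.3, 59.0 and 31.7 in KO and 204, 213 and 207 in WT. At 90 min the values were 57.5, 78.1 and 17.8 in KO and 196, 176 and 165 in WT. The differences were -2.10 and -2.05 (limma adjusted p 0.00489 and 0.0039). Pfkfb3 differed by 1.32 and 1.45 at 45 and 90 min, Apoe by 0.90 and 1.02, and Sema4c by 1.35 and 1.48, and all 3 passed at both times. Smpdl3b and H2bc18 were near 0 by 90 min, at -0.06 and -0.07, though their change was not past the threshold (interaction adjusted p 0.882 and 0.882). Both had been chosen by their differences at 0 min. Il10 was the reverse case, with 2.52 and 2.90 at 45 and 90 min, and its change from 0 min had an adjusted p of 0.624 and 0.0504.

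**Figure D4:**
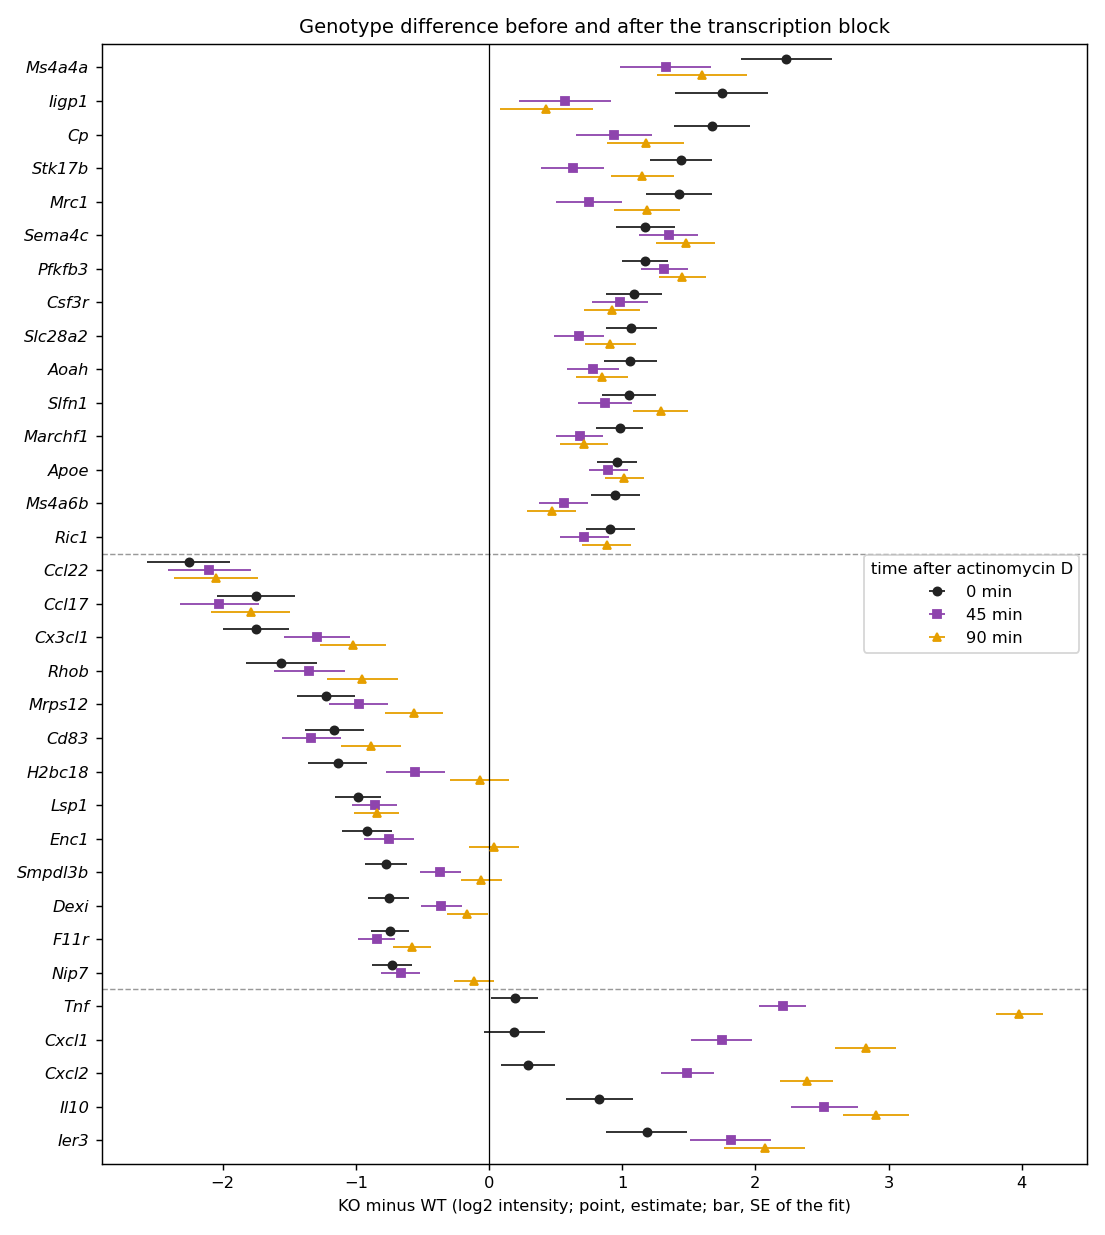
Points give the KO-minus-WT log2 difference and bars its SE at 0, 45 and 90 min after actinomycin D for the named genes higher in KO at 0 min (top), those lower in KO (middle) and 5 reported TTP targets (bottom). The top genes stay right of 0 and the middle genes left of it, except Enc1 at 90 min, whereas Tnf, Cxcl1 and Cxcl2 start near 0 and move to 2.38 or more by 90 min.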

How the data were processed

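Affymetrix Mouse Gene ST 1.0 arrays measured the RNA of 18 samples. The submitters' processing notes name RMA and Affymetrix Expression Console, without versions. The intensity values were deposited by the authors on a linear scale, as read from their range. RMA brings arrays towards a shared distribution, so differences are relative to the average signal of an array. The deposited values still differed between arrays. WT replicate 3 at 0 min had the lowest median intensity of the 18 arrays, 7.41, and the highest mean, 85.3. The file holds no detection calls, and the number of arrays limits the precision.

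Intensities were turned into log2 values without an offset. Among 25138 rows, 21039 had 1 gene symbol, 1485 had several and 2614 were not listed; only the first kind was used. Symbols were updated through RefSeq on GRCm38.p6, and 84 rows kept an older one. The brightest row per symbol gave 19454 genes. A gene was tested if its mean in at least 1 group was not below the median row mean (log2 3.03, intensity 8.16).

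Group and replicate number were fitted with limma 3.58.1 (R 4.3.3) over all 18 arrays, with 10 residual degrees of freedom, empirical Bayes moderation and Benjamini-Hochberg adjustment over all genes at 0.05. The script was tested on simulated data. Every group has 1 array of each number, and the numbers were taken to pair the arrays. Deviations of same-numbered KO and WT arrays from their group means at 0 min had correlations of 0.361, 0.156 and 0.369. Replicate 3 lies in another run of title numbers, so these values cannot show that numbers 1 and 2 are paired. KO replicate 1 had correlations of 0.972 with WT replicate 1 and 0.974 with WT replicate 2. For KO replicate 2 they were 0.965 and 0.970. The title-number runs were tried as a block and within replicates 1 and 2; the run with replicate 3 has 1 array a group and gives values only.

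Named genes were Zfp36; up to 15 per direction with the largest differences among genes past the threshold whose 3 pairs agreed in sign; up to 6 within 10 Mb of Zfp36; and up to 4 called members of each list, or the 2 largest differences where none was called. Other genes are said to be chosen after their values were seen, or belong to a group that was counted in full. Pdpn and Pla2g7 belong to the called genes. Of the Ms4a genes, the chemokines, the macrophage markers and the TTP targets, which include Il10, only some members were named. Those members were picked with their values known. Genes with provisional names were counted only. Members and lists were chosen with earlier results of these data known. Motifs were searched in RefSeq promoters.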

Additional observations from a re-analysis of the deposited data

Results flagged for a closer look

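For 3 genes the KO-minus-WT difference after the transcription block differed from that at 0 min by a test of the change itself, and all 3 were named after their values were seen. For Tnf the difference at 45 min exceeded that at 0 min by 2.013 on the log2 scale (limma interaction, adjusted p 0.00337), and the difference at 90 min exceeded it by 3.791 (adjusted p 3.01e-07). For Cxcl1 the difference at 90 min exceeded that at 0 min by 2.636 (adjusted p 0.00177), and for Cxcl2 by 2.091 (adjusted p 0.00412). The interaction had 0 genes in the other direction at either time, with 227 genes at 45 min and 139 at 90 min at an unadjusted p below 0.05. These tests use the 0 min arrays of the comparison and those of the later time. Groups of 3 arrays are too small for a check of single outlying arrays by gap.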

How the results depend on the processing

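All 28 named genes past the threshold kept their sign under each of the 20 alternatives run. They were chosen with the same sign in all 3 pairs, and the alternatives reuse those arrays, so the sign had little room to change. The calls did not hold everywhere. Ccl22 passed in 15 of 20, Cx3cl1 in 14, Ms4a4a, Pfkfb3 and Apoe in 13, and Enc1 and Nip7 in 7. Against 19 higher and 13 lower genes, the fit without the replicate block called 0 and 0 (unadjusted 387 and 390). The 6 arrays alone called 0 and 0 with the replicate block (unadjusted 550 and 395) and 0 and 0 without it (177 and 254). Within replicates 1 and 2 the replicate block gave 991 and 135, among them all 19 and 13, whereas the title-number run as a block gave 23 and 13. Centring on ribosomal protein genes gave 611 higher and 13 lower and moved the median of all genes to 0.25. A second quantile normalization gave 34 and 22, and an offset of 16 gave 22 lower. Leaving out 1 array gave 0 to 1395 higher and 0 to 249 lower: 2 and 3 without KO replicate 1, 0 and 0 without KO replicate 2 (unadjusted 432 and 511) or KO replicate 3 (312 and 351), 0 and 2 without WT replicate 1 (263 and 533), 1 and 1 without WT replicate 2, and 1395 and 249 without WT replicate 3. The cause of these shifts was not tested. For the change with time, called counts were 1 at 45 min and 2 or 3 at 90 min, all positive, under the alternatives run for it. Its unadjusted counts moved more. Positive and negative changes at 45 min numbered 179 and 227 as reported, 74 and 113 without the replicate block (1 and 0 called) and 375 and 400 with no filter on dim rows. Negative changes at 90 min numbered 139, 97 and 480 in the same order, with 2 positive and 0 negative called without the replicate block. Falls that end near the signal limit, such as Mrps12, are limited by background.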
